A study of Homo sapiens with 24 samples.

Results

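HEK293 cells, an established human embryonic kidney line, that had not been transfected were compared after 8 h with 150 μM H2O2 and without treatment, in 3 libraries of each kind. These 6 of the 24 libraries in the series were chosen by their labels, and each H2O2 library was set against the untreated library of the same batch (batches 1 to 3). The other 18 libraries came from the same cells transfected with EVI1-WT or EVI1-AQA plasmid (which express the transcription factor EVI1 or an altered form of it) or with empty vector, again with or without H2O2. The labels do not say whether replicates were separate cultures, so the tests measure a spread between libraries, which may be technical. That spread was estimated for each transcript from all 24 libraries. An SE is therefore not the spread of the 3 untransfected pairs alone. The untransfected cells carried no vector.

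H2O2 is a membrane-permeable oxidant that inactivates thiol enzymes, damages DNA and, in many cell types, activates the transcription factors NRF2, AP-1 and p53. Peroxiredoxins and glutathione peroxidases remove it in culture, and thioredoxin and glutathione keep these enzymes reduced. NRF2 acts through antioxidant response elements, AP-1 and CREB/ATF proteins through related short motifs, and p53 through cell cycle arrest and repair genes.

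Libraries were made from the 3′ ends of polyadenylated RNA. Expression was deposited on a log2 scale, as normalized by the authors, for 11579 transcripts, and each of them averages 0 over the 8 libraries of a batch. A value of -0.56 therefore means that a transcript lay 0.56 log2 units below its mean in that batch, and no absolute level or depth can be given. The values are differences in RNA share, so that fewer cells of a kind and less RNA per cell cannot be told apart. On chromosome 1, 50.7% of protein-coding genes and 2.39% of other genes have a row in the table, against 19.3% and 16.4% on chromosomes 2 to 22, where labels and values may not belong together. Genes are therefore named only among the 1131 transcripts on chromosome 1 (1045 of them protein coding), and the other rows serve as background. In the row labelled CACNB3, singled out after its values were seen, the 6 untransfected libraries all lie low, between -4.49 and -1.64. Untreated libraries with EVI1-WT or EVI1-AQA lie between 2.62 and 4.14. Untreated empty vector libraries lie low too (-2.18, -4.10 and -3.47), so the row cannot tell untransfected from empty vector libraries. There, 3 transfected libraries depart from their groups: the H2O2 libraries of empty vector replicate 2 (4.36), EVI1-WT replicate 2 (-4.38) and EVI1-AQA replicate 1 (-2.60). None of these is an untransfected library. The shares with the same sign, the higher transcripts that also passed, the correlations and most interaction results are also given or checked without them. Other values of transfected cells, and the SEs, include them.

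The response of untransfected cells was small and spread over many genes, none of which on chromosome 1 passed an adjusted threshold. RNA processing and DNA repair factors were among the transcripts that were higher after H2O2, such as DCLRE1B, DDX20, RBM15 and SRSF4, together with RABGGTB at 2.22-fold. Lower transcripts included the lysine methyltransferases SMYD3 and SMYD2, and TXNIP, the inhibitor of thioredoxin. The peroxide-removing enzymes PRDX1 and PRDX6 and the glutathione synthesis gene GCLM differed by 0.15, 0.13 and 0.19 log2 units and did not pass any threshold.

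Of the 1131 transcripts on chromosome 1, 168 (14.9%) had an unadjusted p under 0.05 in limma's moderated test, beside 12.6% of all 11579. Of these, 98 were higher after H2O2 (8.66%, against 7% of all transcripts) and 70 were lower (6.19%, against 5.64%). No transcript on chromosome 1 passed a Benjamini-Hochberg adjusted p of 0.05, and 1 of all 11579 (0.00864%) did. The median difference was 0.01 log2 units over all transcripts and also 0.01 over chromosome 1. On chromosome 1, 231 transcripts were higher in all 3 batches and 199 were lower in all 3, beside 2111 and 1936 of all 11579. In 201 of the 1131 the values of the H2O2 and untreated groups did not overlap, beside 15.6% of all transcripts. Without replicate 1 the count on chromosome 1 was 95 in place of 168, and without replicate 3 it was 108. Across the 1131 transcripts the response in one batch correlated with that in another at Pearson's r between 0.211 and 0.272, a description over genes that are not independent and that share the libraries. "Higher" and "lower" below refer to the unadjusted threshold.

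The 12 transcripts lowest by p among those that were higher in all 3 batches are given in turn with what each is known to do. DCLRE1B (ENSG00000118655, chr1:113904619-113914086 on GRCh38, plus strand) encodes the Apollo nuclease, which protects telomere ends and acts in crosslink repair. Its values were -0.56, -0.52 and -0.74 in the untreated libraries of batches 1, 2 and 3 and 0.16, 0.04 and -0.17 after H2O2. Every H2O2 library lay above every untreated one, and the difference was 0.62 ± 0.14 log2 units (limma SE, here and below; adjusted p = 0.115). DDX20 (chr1:111754832-111775602, plus strand), the helicase of the SMN complex that assembles spliceosomal snRNPs, had values of -0.49, -0.18 and -0.21 untreated and 0.54, 0.27 and 0.09 after H2O2. The groups did not overlap, with the widest step in batch 1, and the difference was 0.59 ± 0.14 (adjusted p = 0.125).

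RBM15, which recruits the m6A methyltransferase to RNA, lay at -0.86, -0.95 and -0.82 in untreated cells and at -0.03, -0.07 and -0.52 after H2O2. All untreated libraries were lower, and the difference was 0.67 ± 0.18 (adjusted p = 0.149). SRSF4, a serine- and arginine-rich splicing factor, lay at -0.20, -1.01 and -1.18 untreated and at -0.07, -0.04 and -0.30 after H2O2. It was the one transcript of the 12 whose groups overlapped, because the untreated library of batch 1 was higher than the H2O2 library of batch 3, and the difference was 0.67 ± 0.20 (adjusted p = 0.200). ISG20L2, a nuclease of ribosomal RNA processing, differed by 0.59 ± 0.17.

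RABGGTB (ENSG00000137955, chr1:75786197-75795086, plus strand), the beta subunit of the enzyme that attaches geranylgeranyl groups to Rab GTPases, showed the widest difference among the 12. Its untreated values were -0.71, -0.50 and -1.10 and its values after H2O2 0.66, 0.18 and 0.30. The groups were well apart in every batch, and the difference was 1.15 ± 0.27 log2 units (adjusted p = 0.115). Its promoter holds the core letters of an antioxidant response element, printed below. NECAP2, which binds clathrin adaptors in endocytosis, differed by 0.52 ± 0.14.

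FLVCR1, a membrane transporter of haem and choline, lay at -0.33, -0.44 and -0.54 untreated and at 0.40, 0.05 and 0.34 after H2O2. The groups did not overlap and the difference was 0.70 ± 0.16 (adjusted p = 0.115). PRKAB2, a regulatory subunit of the energy sensor AMPK, lay at -0.27, -0.45 and -0.54 untreated and at 0.41, 0.29 and -0.01 after H2O2. It too showed no overlap, and differed by 0.65 ± 0.16 (adjusted p = 0.125). TESK2, a kinase that phosphorylates the actin-severing protein cofilin, lay at -0.67, -0.80 and -1.50 untreated and at -0.24, -0.09 and 0.05 after H2O2. Its groups were apart as well, by steps of 0.44, 0.70 and 1.55 and a mean of 0.90 ± 0.22 (adjusted p = 0.125).

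ELK4, a partner of serum response factor at immediate early genes, lay at -0.77, -0.50 and -0.54 untreated and at 0.60, 0.12 and -0.04 after H2O2, a difference of 0.83 ± 0.24 (adjusted p = 0.177). YOD1, a deubiquitinase that acts on proteins drawn from the endoplasmic reticulum, lay at -0.80, -0.67 and -0.56 untreated and at 0.31, -0.21 and -0.14 after H2O2, a difference of 0.66 ± 0.20 (adjusted p = 0.190). In neither gene did the groups overlap, and in both the widest step was that of batch 1. Without replicate 1, DDX20 and YOD1 no longer passed the unadjusted threshold, and without replicate 2 SRSF4 did not.

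**Figure D1:**
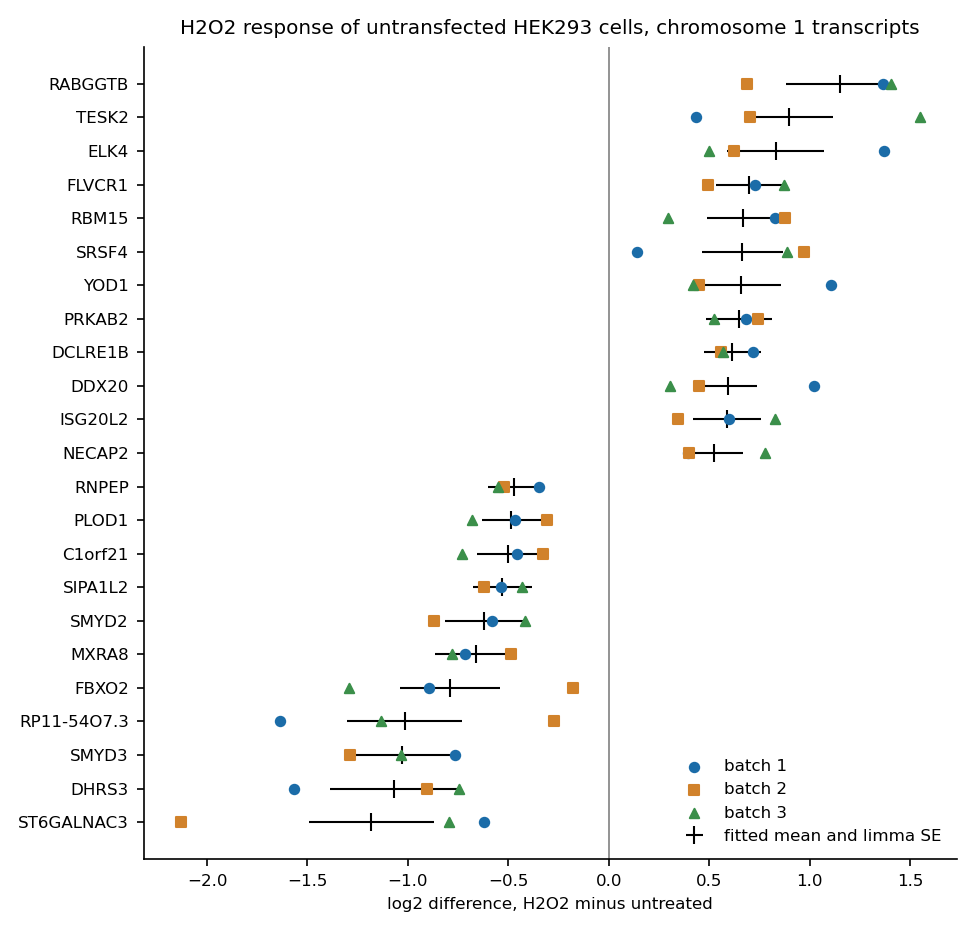
Difference between H2O2-treated and untreated untransfected cells (log2, x axis) for the 12 higher and 11 of the 12 lower transcripts lowest by p on chromosome 1. Circles, squares and triangles are batches 1, 2 and 3, and the vertical marks with bars are the fitted mean and limma SE. All points of a transcript lie on one side of 0, as the choice required, and the means run from -1.18 (ST6GALNAC3) to 1.15 (RABGGTB).

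Among the 12 lower transcripts the groups never overlapped. RNPEP, aminopeptidase B, differed by -0.47 ± 0.13, from 0.24, 0.53 and 0.30 to -0.11, 0.01 and -0.25.

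SMYD3 (chr1:245749342-246507312, minus strand) and SMYD2 encode lysine methyltransferases with histone and other substrates. SMYD3 lay at 0.14, 0.60 and 0.72 untreated and at -0.62, -0.68 and -0.32 after H2O2, a difference of -1.03 ± 0.28 (adjusted p = 0.163). SMYD2 lay at 0.53, 0.56 and 0.31 untreated and at -0.05, -0.31 and -0.11 after H2O2, a difference of -0.62 ± 0.19 (adjusted p = 0.216). Both were lower in each of the 3 batches, and the value of SMYD2 no longer passed without replicate 2.

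The metabolic enzymes were led by ST6GALNAC3 (chr1:76074746-76634603, plus strand), a sialyltransferase of glycolipids, at 0.43, 1.04 and 0.60 untreated and -0.20, -1.10 and -0.20 after H2O2. The difference was -1.18 ± 0.31 (adjusted p = 0.138), with the widest step in batch 2, and without replicate 2 it was -0.71 and did not pass. DHRS3, a retinal reductase, lay at 0.70, 0.78 and 0.45 untreated and at -0.87, -0.12 and -0.30 after H2O2, a difference of -1.07 ± 0.31 (adjusted p = 0.184). PLOD1, a collagen lysyl hydroxylase, differed by -0.48 ± 0.15, and without replicate 3 it did not pass.

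FBXO2, the F-box protein of a ubiquitin ligase for glycoproteins, lay at -0.04, -0.78 and 0.01 untreated and at -0.94, -0.95 and -1.28 after H2O2. Its difference of -0.79 ± 0.25 (adjusted p = 0.216) came mostly from batches 1 and 3, and without replicate 3 it did not pass. MXRA8, a cell surface protein, differed by -0.66 ± 0.20, SIPA1L2, a Rap GTPase-activating protein, by -0.53 ± 0.15, and C1orf21 by -0.50 ± 0.15. The long noncoding RNA RP11-54O7.3 (LINC02593 in GENCODE v44) differed by -1.02 ± 0.29 and did not pass without replicate 1.

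Promoter letters were read from RefSeq sequence on GRCh38.p14, from 250 bases before to 50 bases after each gene's start, and 4 motifs were searched on both strands: the antioxidant response element core TGACNNNGC, the AP-1 site TGANTCA, the pair of heat shock units GAANNTTC and the cAMP response element TGACGTCA. An AP-1 site of the form TGACTCA that is followed by GC counts for both of the first 2 motifs. Over all 35116 windows, 13.3%, 7.71%, 6.77% and 1.85% hold them. Of the 12 higher genes, 3 hold the antioxidant response element core (RABGGTB, DDX20 and YOD1), 1 holds the AP-1 site (YOD1) and 0 hold the other motifs. Of the 12 lower genes, 10 have a window, 1 of which holds the heat shock pair (PLOD1), and 0 hold the other 3 motifs. The stretches below are the matches upstream of the start in RABGGTB and YOD1, shown because both transcripts were among the 12, and the cAMP elements of 4 higher members of the gene groups described next. The start is that of the RefSeq entry, and the stretches of RABGGTB, YOD1, EXO1 and DTL lie inside the gene span of GENCODE v44, where other transcripts begin earlier, and those of EPHA2 and SNRNP40 lie before it. They run 5′ to 3′ in the direction of the gene, with the motif in capitals.
RABGGTB, antioxidant core, chr1:75786232-75786255, plus strand: acccaggaacTGACCCTGCtctct
YOD1, antioxidant core on the opposite strand, chr1:207051286-207051314, minus strand: ctcactaagtGCAAGGTCAcattccaatc
YOD1, AP-1, chr1:207051405-207051431, minus strand: actggtccttTGACTCActgaccattc
EXO1, cAMP element, chr1:241848140-241848167, plus strand: ggatacgcgtTGACGTCAcatcctctgg
DTL, cAMP element, chr1:212035721-212035747, plus strand: tcagagagcgTGACGTCAgtttggcgc
EPHA2, cAMP element, chr1:16156103-16156130, minus strand: cgggcgttggTGACGTCAcgcagggcat
SNRNP40, cAMP element, chr1:31296918-31296945, minus strand: cgcactctcaTGACGTCAgaaagatatg
These matches describe letters, and no binding was measured. Among 87 genes (the 24 and up to 4 of each gene group), 75 have a window. Of those, 10 (13.3%) hold the antioxidant response element core, 1 (1.33%) the AP-1 site and 7 (9.33%) the heat shock pair, beside 13.3%, 7.71% and 6.77% of all windows. The cAMP element is in 5 (6.67%), the fifth being SDHB at or after its start, beside 1.85% of all windows, and was singled out of the 4 motifs after the letters were seen.

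The 18 gene groups were drawn up from pathway knowledge, with earlier results of these data known. Over all transcripts 7% were higher and 5.64% were lower, and the counts of every group stand beside these shares. DNA replication and repair had 24 measured members, of which 5 were higher and 0 were lower. EXO1, a mismatch repair and end resection exonuclease, lay at -0.59, -0.07 and -0.19 untreated and at 0.32, 0.20 and 0.22 after H2O2 (0.53 ± 0.18). DTL, the substrate receptor of a ubiquitin ligase at replication forks, differed by 0.49 ± 0.19, ORC1 of the origin recognition complex by 0.37 ± 0.14 and the transcription factor E2F2 by 0.52 ± 0.23, with DCLRE1B as given above. In all these genes but DTL the groups did not overlap. The group's median was 0.05, beside 0.01 over all transcripts, and without replicate 1 only DCLRE1B of its members still passed.

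Splicing factors had 29 measured members, of which 5 were higher and 0 were lower. Of the 29, 22 lay above 0, where 6008 of all 11579 transcripts did. The group's median was 0.17, beside 0.01 over all transcripts. The median was 0.19, 0.18 and 0.16 in batches 1, 2 and 3, so that the batches gave much the same value. SNRNP40, a U5 snRNP protein, lay at -0.15, 0.10 and -0.40 untreated and at 0.28, 0.35 and 0.28 after H2O2 (0.45 ± 0.14). SRSF11 differed by 0.31 ± 0.14, and RBM15 and SRSF4 are given above. Under the alternatives 2 to 6 members were higher and 0 were lower, the fewest without replicate 2. Of the 4 measured RNA helicases, DDX20 and DHX9 (0.27 ± 0.13) were higher, and the group's median was 0.02. Without replicate 1 neither passed, and DHX9 did not pass without replicate 2 or replicate 3 either. SNHG3, a small nucleolar RNA host gene, was higher by 0.68 ± 0.27 but did not pass without replicate 2 or replicate 3. With all replicates the other 2 hosts, GAS5 and SNHG12, differed by 0.34 and 0.25 and did not pass.

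Immediate early and stress-induced genes had 15 measured members, of which 2 were higher and 1 was lower, with a median of 0.37. The batches differed, with medians of 0.55, -0.11 and 0.18, and the median was -0.02 without replicate 1. The count of higher members was 1 without replicate 1 and 5 without replicate 2, and 0 members were lower without replicate 2 or replicate 3. MCL1, an antiapoptotic BCL2 relative, was higher by 0.43 ± 0.13, from -0.37, -0.41 and -0.05 to 0.29, 0.05 and 0.12. DUSP12, a dual-specificity phosphatase, was higher by 0.44 ± 0.16, and IER5 was lower by 0.54 on the log2 scale, from 0.42, 0.20 and 0.49 to -0.05, -0.53 and 0.08. Neither MCL1 nor DUSP12 passed without replicate 1, where the 1 higher member was another gene. The following members were chosen for their known role after their values were seen. JUN differed by 0.03 ± 0.34 and did not pass, with -0.33, 0.07 and 0.94 untreated and 0.51, -0.33 and 0.59 after H2O2. ATF3, a stress-induced transcription factor, lay at -0.71, 0.75 and 0.25 untreated and 0.87, 0.39 and 0.57 after H2O2 (0.51 ± 0.34, adjusted p = 0.553). In both genes the groups overlapped, and JUN was higher after H2O2 in batch 1 alone and ATF3 in batches 1 and 3.

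The p53 pathway list, which shares 6 members with the previous one, had 16 measured members, 2 higher and 2 lower, with a median of 0.27. The batch medians were 0.35, -0.05 and 0.15, the median without replicate 1 was 0.04, and 1 member was lower without replicate 2 or replicate 3. EPHA2, a receptor tyrosine kinase, lay at -1.59, -0.31 and -0.43 untreated and at 0.57, 0.09 and 0.41 after H2O2. Its groups did not overlap and the difference was 1.13 ± 0.37 (adjusted p = 0.227), and 0.62 without replicate 1. E2F2 was the other higher member, and IER5 and RFWD2, a ubiquitin ligase for p53, were lower (RFWD2 by -0.49 ± 0.17, from 0.39, 0.70 and 0.44 to -0.14, 0.10 and 0.09). GADD45A, a growth arrest gene, went from -0.74, 0.75 and 0.02 to 1.38, 0.77 and 0.35, a difference of 0.82 ± 0.48 that did not pass (adjusted p = 0.499). Its step was wide in batch 1, 0.02 in batch 2 and 0.33 in batch 3. SESN2 lay at 0.44, 0.78 and 1.03 untreated and at -0.14, 0.31 and 0.44 after H2O2, and its difference of -0.55 ± 0.30 also did not pass (adjusted p = 0.461).

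**Figure D2:**
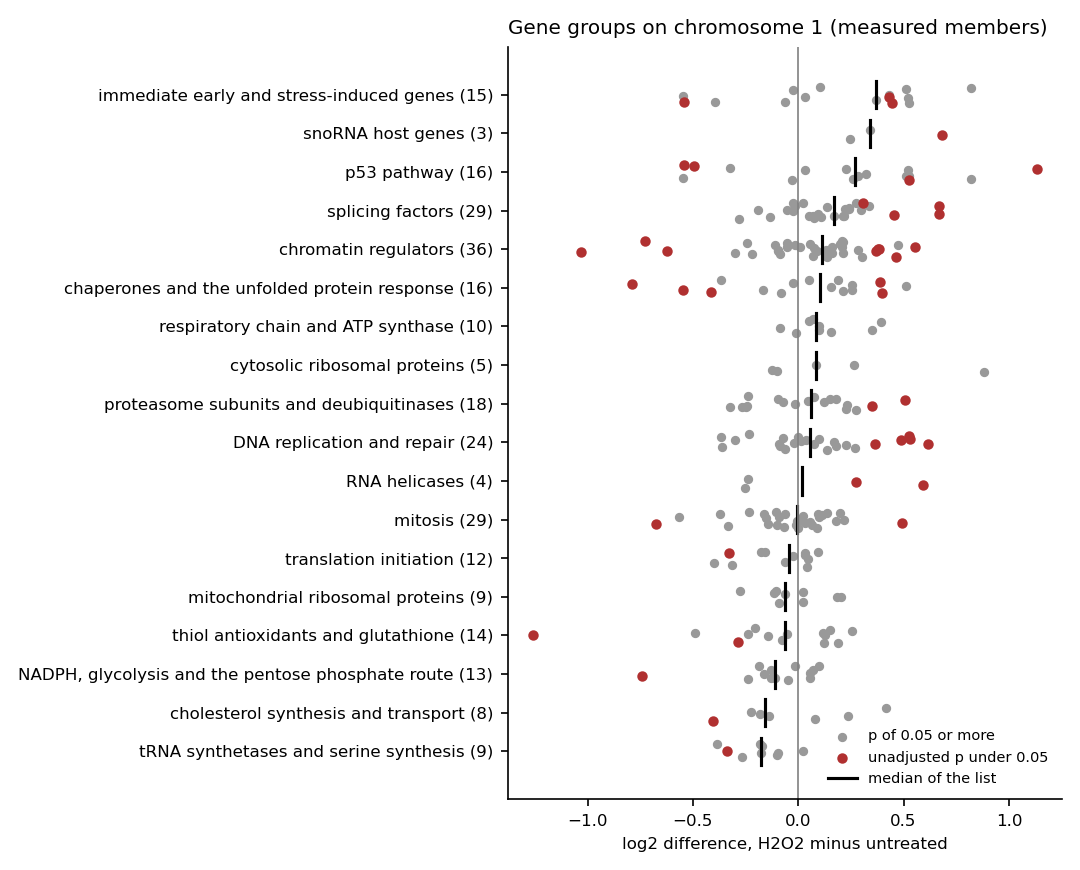
Difference between H2O2-treated and untreated untransfected cells (log2, x axis) for each measured chromosome 1 member of 18 gene groups, with the number of members in brackets. Of the members, 3 are not drawn. Red points had an unadjusted p under 0.05, grey points did not, and black bars are medians over all members, which run from -0.17 for tRNA synthetases and serine synthesis to 0.37 for immediate early and stress-induced genes (-0.02 without replicate 1).

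Thiol antioxidant and glutathione genes had 14 measured members, with 0 higher and 2 lower and a median of -0.06. Without replicate 1 the median was 0.04, and the count of lower members was 1 without replicate 1 and 1 without replicate 2. TXNIP, which binds and inhibits thioredoxin, lay at 0.36, 0.42 and 1.53 untreated and at -0.29, -1.61 and 0.44 after H2O2. It was lower within each batch, although the groups overlapped, and differed by -1.26 ± 0.46 (adjusted p = 0.268). AKR7A2, an aldehyde reductase, differed by -0.29 ± 0.13, from 0.30, -0.08 and 0.10 to -0.30, -0.13 and -0.12. TXNIP did not pass without replicate 2 (-0.87), nor AKR7A2 without replicate 1 (-0.13) or replicate 3. PRDX1, a peroxiredoxin, lay at 0.02, -0.30 and -0.32 untreated and -0.02, -0.36 and 0.22 after H2O2, and GCLM, the modifier subunit of glutamate-cysteine ligase, at -0.12, 0.06 and -0.15 and then 0.12 in all 3 H2O2 libraries. Neither passed (adjusted p = 0.833 for PRDX1 and adjusted p = 0.664 for GCLM).

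Chaperones and unfolded protein response genes had 16 measured members, 2 higher (ERO1LB, an oxidase of protein thiols in the endoplasmic reticulum, 0.40 ± 0.14, and HSPB11, 0.39 ± 0.18) and 3 lower (FBXO2, the signalling adaptor TRAF5, -0.55 ± 0.21, and the cochaperone DNAJC16, -0.41 ± 0.17). Proteasome subunits and deubiquitinases had 18, of which OTUD3 (0.51 ± 0.18) and UBAP2L (0.35 ± 0.16) were higher and 0 were lower. UBAP2L is a ubiquitin- and RNA-binding protein, and OTUD3 cleaves ubiquitin chains. The list medians were 0.11 (0.01 without replicate 1) and 0.06. Without replicate 3 no chaperone gene passed in either direction, and without replicate 1 or replicate 2 no proteasome or deubiquitinase gene did. UBAP2L did not pass without replicate 3 either.

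Of the 36 chromatin regulators measured, 5 were higher and 3 were lower, with a median of 0.11. PHF13 (0.55 ± 0.17) and RBBP5 (0.46 ± 0.18), which read or write methylation of histone H3 lysine 4, were higher in groups that did not overlap, as were MIER1 and YY1AP1. The lower members were SMYD3, SMYD2 and the histone gene HIST2H2AC at -0.73, whose reads may be shared with near-identical copies. Without replicate 1 and without replicate 2 the count of higher members was 2. Mitosis genes had 29 measured members, 1 higher (RCC2, 0.49 ± 0.18) and 1 lower (CENPF, a kinetochore protein, -0.67 ± 0.26), with a median of -0.01. CENPF was lower within each batch, but its groups overlapped. Neither RCC2 nor CENPF passed without replicate 1, when 0 mitosis genes were higher and 0 lower, and CENPF did not pass without replicate 3.

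The groups for energy and synthesis had few calls. Respiratory chain and ATP synthase genes had 10 measured members, of which 0 were higher. NADPH, glycolysis and pentose phosphate genes had 13 and 1 lower (ALDH4A1, a mitochondrial proline catabolism enzyme, -0.74 ± 0.26, from 0.49, -0.14 and 1.21 to -0.20, -0.24 and -0.22). tRNA synthetases and serine synthesis had 9, with 1 lower (TARS2, -0.34 ± 0.15) and 1 above 0, and a median of -0.17. Translation initiation had 12, with 1 lower (EIF4G3, -0.33 ± 0.15). Cholesterol synthesis and transport had 8, and PMVK, phosphomevalonate kinase, was lower by -0.41 ± 0.19. In these 5 groups no member was higher with all replicates. Each list but the first had 0 lower members in at least 1 of the fits that left out a replicate. None of the 5 cytosolic and 9 mitochondrial ribosomal protein genes passed in limma. RPS27 differed by 0.88 ± 0.46, at 0.21, -0.18 and -2.17 untreated and 0.25, 0.43 and -0.16 after H2O2, with the low value in the untreated library of batch 3.

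Markers of other cell types were close to absent from the table, which holds transcripts past the authors' cut-off. Of 12 leukocyte markers on chromosome 1, 1 has a row (CD58, which many tissues express), and 0 of 6 keratinocyte markers and 0 of 8 striated muscle markers have one. CD58 lay at 0.17, 0.42 and 0.81 untreated and at 0.25, 0.07 and -0.05 after H2O2, in groups that overlapped, and was lower by -0.37 ± 0.18.

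The longest genes held more lower than higher transcripts. The 1131 transcripts were divided into quartiles by the length of the gene on the chromosome. In the quartile of the longest genes, 65.6 to 1230 kb, 11 were higher and 27 were lower, and the median difference was -0.06, at -0.06, -0.05 and -0.05 in batches 1, 2 and 3. In the other quartiles 24, 36 and 27 were higher and 16, 12 and 15 were lower, from short to long, with medians of 0.05, 0.05 and 0.02. Among the transcripts named above as lowest by p, SMYD3, ST6GALNAC3, SIPA1L2 and C1orf21, which were lower, belong to the longest genes. So does TESK2, which was higher. In batch 1 the median of the shortest genes was -0.04, against 0.04 and 0.09 in batches 2 and 3. The medians in the longest quartile were also below 0 in cells with empty vector (-0.10), EVI1-WT (-0.11) and EVI1-AQA (-0.03). No test was run on the quartiles, since genes are not replicates.

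The transfected cells received the same H2O2 dose and share no library with the untransfected cells. They show whether the direction of the calls recurs within the same 3 batches. An effect that the treated libraries of a batch share would recur as well, and this was not tested. One fit gave each transcript the same SE in every state. A transcript with a small SE passes more easily in all of them, so the counts that also passed are not independent of the calls. In empty vector cells 14.6% of all transcripts passed the unadjusted threshold, in EVI1-WT cells 12% and in EVI1-AQA cells 14.8%. Of the 98 transcripts higher in untransfected cells, 87 (88.8%) lay above 0 in empty vector cells and 87 (88.8%) in EVI1-WT cells, where 51.2% and 53.5% of all chromosome 1 transcripts did. In EVI1-AQA cells 60 (61.2%) did, against 54.7% of all. The higher transcripts that also passed there numbered 43 (43.9%, against 9.28% of chromosome 1), 30 (30.6%, against 7.69%) and 18 (18.4%, against 8.31%). Without the 3 departing libraries they numbered 29 (29.6%, against 6.45%), 27 (27.6%, against 6.72%) and 17 (17.3%, against 8.66%). Of the 70 lower transcripts, 62 (88.6%), 60 (85.7%) and 37 (52.9%) lay below 0 in the 3 states, against 48.8%, 46.5% and 45.3% of all.

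The sizes followed the same order. The higher transcripts had a median of 0.48 in untransfected cells, 0.35 with empty vector, 0.24 with EVI1-WT and 0.08 with EVI1-AQA, and the lower transcripts -0.50, -0.31, -0.26 and -0.02. The transcripts were chosen on the untransfected values, so the first value of each series is not set against the others by a test. Over all 1131 transcripts the mean response of untransfected cells correlated with that of empty vector cells at r = 0.574, of EVI1-WT cells at r = 0.476 and of EVI1-AQA cells at r = 0.0277. Within batches the first was 0.649, 0.182 and 0.185, the second 0.461, 0.097 and 0.187, and the third 0.153, 0.117 and -0.225, so that batch 1 gave the closest match in each. Leaving out the 3 libraries that depart in the row labelled CACNB3, the share of the 98 with the same sign was 94.9%, 86.7% and 60.2%, that of the 70 was 90.0%, 85.7% and 48.6%, and the 3 correlations were 0.588, 0.471 and 0.00609. These correlations are descriptions over genes, which share the libraries, and all states share the 3 batches.

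**Figure D3:**
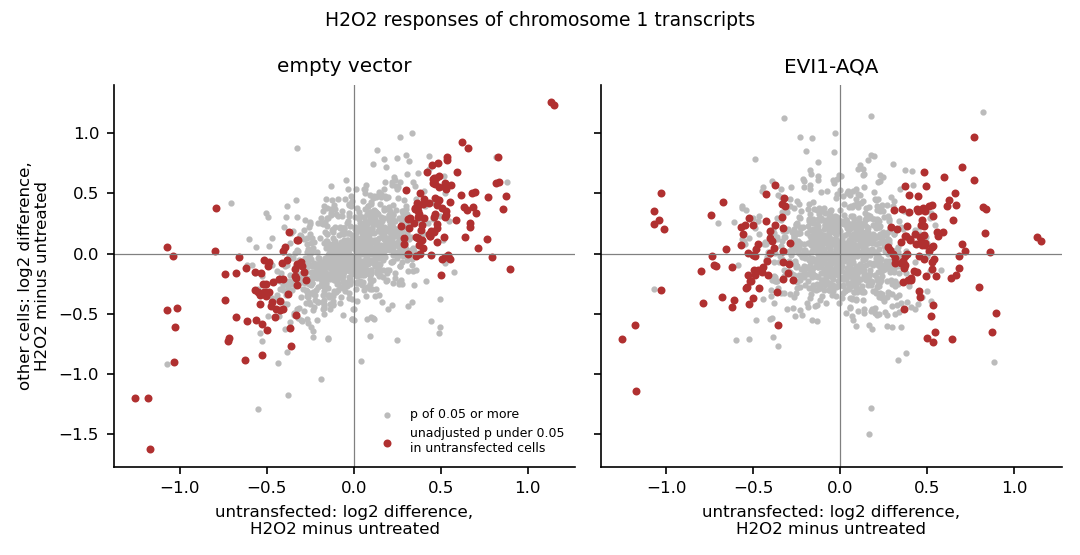
Log2 difference between H2O2-treated and untreated cells for 1131 chromosome 1 transcripts, in untransfected cells (x axis) against empty vector cells (left) and EVI1-AQA cells (right, y axes). Red points had an unadjusted p under 0.05 in untransfected cells. They follow the diagonal on the left (r = 0.574 over all points) and spread around 0 on the right (r = 0.0277).

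Single transcripts differed in how far they recurred. DDX20 was higher in all 4 states, by 0.59 in untransfected cells and by 0.68, 0.84 and 0.63 in cells with empty vector, EVI1-WT and EVI1-AQA, and DCLRE1B by 0.62, 0.49, 0.41 and 0.39. RABGGTB differed by 1.15, 1.24 and 1.16 in the first 3 and by 0.10 in EVI1-AQA cells, where it did not pass. The differences of FLVCR1 (0.70, 0.51, 0.53 and 0.08) and NECAP2 (0.52, 0.59, 0.51 and 0.05) ran the same way. Whether the response in EVI1-AQA cells differs from that in untransfected cells was not tested for single transcripts.

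The difference between the responses of untransfected and empty vector cells was itself tested as an interaction. At an unadjusted p under 0.05, 367 of all transcripts (3.17%) passed, 31 of them on chromosome 1 (2.74% of its transcripts), and 0 passed the adjusted threshold in limma. Both shares are below what this unadjusted threshold lets pass on average where no response differs, so the transcripts named next are only the lowest by p. Without replicate 2 the count of 367 was 231. TESK2 led those with the higher response in untransfected cells, at 0.90 against -0.13 with empty vector, a difference of 1.02 ± 0.31 (adjusted p = 1.0). Its steps were 0.44, 0.70 and 1.55 in untransfected cells and -0.14, 0.14 and -0.37 in empty vector cells, which do not overlap. CASP9, the initiator caspase of the mitochondrial route to apoptosis, led in the other direction, at -0.32 against 0.87, a difference of -1.20 ± 0.32. Its steps were -0.30, -0.59 and -0.08 against 0.13, 1.34 and 1.15. FBXO2 differed by -1.16 ± 0.35. Without the 3 departing libraries these differences were 1.13, -0.98 and -1.02, and all 3 still passed. RP11-142L4.2 (0.96) and KAZN (0.74) were next among those higher in untransfected cells, and ZBTB40 (-0.77) among those lower. Without the 3 libraries the difference of RP11-142L4.2 was 0.62 and that of ZBTB40 was -0.61, which did not pass.

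Against the mean response of all 3 transfected states, 794 transcripts (6.86%) differed at the unadjusted threshold, 75 of them on chromosome 1, and 0 passed the adjusted one. Without replicate 3 the count was 471. TESK2 again led, with a difference of 1.10 ± 0.25 (adjusted p = 0.240). ADGRB2, an adhesion receptor, differed by 0.86 ± 0.24 and B3GALT6, a galactosyltransferase of proteoglycan linkers, by 0.84 ± 0.25. In the other direction CD58 differed by -0.69 ± 0.21, TMEM222 by -0.66 ± 0.20 and RNF2, the catalytic ubiquitin ligase of Polycomb complexes, by -0.53 ± 0.17. The response of ADGRB2 in untransfected cells was 0.17 and in EVI1-AQA cells -1.50, and that of TMEM222 was -0.16 and 0.96, so that for both genes the response of EVI1-AQA cells was the one farthest from 0. All of these still passed the unadjusted threshold without the 3 departing libraries.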

How the data were processed

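The authors sequenced QuantSeq 3′ libraries, used the Ensembl annotation of GRCh38 (release 90) and kept transcripts past 10 FPKM in Qlucore Omics Explorer 3.3. They deposited log2 expression values. The aligner is not given in the sources used here. Depth is unknown, so no counting error or detection limit is given, and no filter on low values could be applied. The 8 group means and batch, given by the labels and equal to the replicate number, were fitted to all 24 samples with limma 3.58.1 (R 4.3.3, residual df 14, prior df 5.04). Two-sided tests had thresholds of an unadjusted p of 0.05 (applied to every transcript, whereas the study applied a pairwise threshold after a first selection across groups) and a Benjamini-Hochberg adjusted p of 0.05 over 11579 transcripts. An exact test of 3 against 3 that ignores the pairing cannot go below p = 0.1, and a paired exact test has a higher limit still. Same-numbered samples deviated with a mean correlation of -0.14 and others of 0.0702, which the centring fixes. The pairing comes from the labels.

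The code was tested on simulated data. Members, lists and tests were chosen with earlier results of these data known. Genes named are the 12 lowest by p in each direction with the same sign in 3 batches, at most 4 per list lowest by p and 3 per interaction and direction, and any further list member named was chosen after its values were seen. The results for 3 of these genes are not reported here. Positions and types come from GENCODE v44, which holds 10892 of the identifiers (94.1%). Labels changed to dates by a spreadsheet were replaced through their identifiers. The 9 alternatives were no replicate block, the untransfected samples alone (for the interaction with empty vector, these and the empty vector samples), no moderation, leaving out the 3 departing libraries, subtracting sample medians, quantile normalization and leaving out each replicate. Tables and figures used Python 3.11.15, numpy 2.4.6, pandas 2.3.3 and matplotlib 3.10.9.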

Additional observations from a re-analysis of the deposited data

Results flagged for a closer look

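For 2 of the named transcripts every batch of untransfected cells moved one way and every batch of EVI1-AQA cells the other, and the difference between these responses was not tested. TESK2 differed by 0.90 log2 units in untransfected cells and by -0.50 in EVI1-AQA cells, where the batches gave -0.43, -0.17 and -0.90. SMYD3 differed by -1.03 in untransfected cells and by 0.50 in EVI1-AQA cells, where the batches gave 0.35, 0.34 and 0.82. The H2O2 library of EVI1-AQA replicate 1 is one of the 3 that depart in the row labelled CACNB3, and the values of batches 2 and 3 have the same signs as that of batch 1.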

How the results depend on the processing

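The count of 1464 transcripts past the unadjusted threshold lay between 978 and 1788 under the 9 alternatives, and without a replicate block it was 1788. On chromosome 1 the count of 168 was 110 after quantile normalization and 95 to 129 when one replicate was left out (95 without replicate 1, 108 without replicate 3). The count of 1 past the adjusted threshold was 45 without the replicate block, 0 after quantile normalization and 0 to 1 with one replicate left out (0 without replicate 3). On chromosome 1 it was 0 with the replicate block and 3 without it. With one replicate left out, the interaction with empty vector cells gave 231 to 534 unadjusted calls in place of 367 (231 without replicate 2), and that with all transfected cells 471 to 995 in place of 794 (471 without replicate 3). Without the replicate block these counts were 514 and 1038, and the latter had 4 adjusted calls in place of 0. All other alternatives kept these counts within 1.5 times. The fit without the block counts degrees of freedom that the batch centring has used. The cause of the other changes was not tested.

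All 24 named transcripts kept their direction under each alternative and passed the unadjusted threshold under the 6 that leave out no replicate. Of them, 3 did not pass without replicate 1 (DDX20, YOD1 and RP11-54O7.3), 3 without replicate 2 (SRSF4, ST6GALNAC3 and SMYD2) and 2 without replicate 3 (PLOD1 and FBXO2). Of the 43 members of the gene groups past the unadjusted threshold, 18, 22 and 24 still passed without replicate 1, 2 and 3, and all 43 kept their direction in each. No alternative without a log scale or with a filter on low values was run, because the values are centred. With 3 samples a group and no depth, a difference above its SE can still miss the unadjusted threshold, as GADD45A did at 0.82 ± 0.48. With the replicate block no difference on chromosome 1 passed the adjusted one.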
